A study of Rattus norvegicus with 11 samples.

Results

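The 9 genes described here encode the enzymes that turn squalene epoxide into lanosterol and lanosterol into cholesterol: Lss, Cyp51, Tm7sf2, Msmo1, Nsdhl, Hsd17b7, Ebp, Sc5d and Dhcr7. They were taken by symbol from the 25275 genes of the deposited table, each stood on a single row, and all 9 passed the filter on low counts among the 12846 genes tested. RNA was sequenced from retroperitoneal white adipose tissue, a fat depot behind the abdominal cavity, of 11 female Wistar rats, with 1 library per rat. The 5 rats of the degarelix plus FSH group received follicle-stimulating hormone (FSH) from implanted pumps at 6 µg per kg per day, and the 6 rats of the degarelix only group had pumps with vehicle. Rats of both groups had eaten a western diet for 6 weeks from an age of 10 weeks, had lost their ovaries, and had been given degarelix, a blocker of the receptor for gonadotropin-releasing hormone that lowers the pituitary's own FSH. Both groups were then food-limited for 12 days and fed freely for 7 days. The rats were 19 weeks old when the depot was taken, following a fast of 4 h. The comparison asks what added FSH does to fat in animals without ovarian hormones.

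Cells make cholesterol in the endoplasmic reticulum in a chain of steps from acetyl-CoA through mevalonate and squalene. The late part of the chain closes the sterol rings, removes the extra methyl groups of lanosterol and moves or reduces the remaining double bonds. Genes along the chain are known targets of the SREBP transcription factors, which are released from the membrane when sterols run low, and Insig proteins hold them back. White fat stores much of the body's free cholesterol, most of it around the lipid droplet.

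With FSH the genes for the lanosterol demethylase Cyp51 and for Dhcr7, the enzyme of the last step, fell past the threshold (adjusted p under 0.05 over all 12846 genes, edgeR's quasi-likelihood test). Fitted levels in the degarelix plus FSH rats were 0.502-fold for Cyp51 and 0.436-fold for Dhcr7 relative to the degarelix only rats. The other 7 members also had negative log2 changes, between -0.16 for Ebp and -1.13 for Lss, and did not pass. So 2 of 9 members were called, both lower, where 2.27% of all genes tested were called, 1.07% lower and 1.21% higher. At an unadjusted p under 0.05, 6 of 9 members lay lower, where 10.8% of all genes did. The median log2 change of the 9 members was -0.48, beside 0.01 over all genes tested, and 48.4% of all genes had a negative log2 change. Which members were called depended on single libraries: 0 to 5 members passed with 1 library left out. The number of all genes called moved too, from 292 with all libraries to between 30 and 551. The fit with 5 members called, without degarelix only replicate 4, called 532 genes. In whole tissue, fewer cells of a type and less RNA per cell cannot be told apart.

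**Figure D1:**
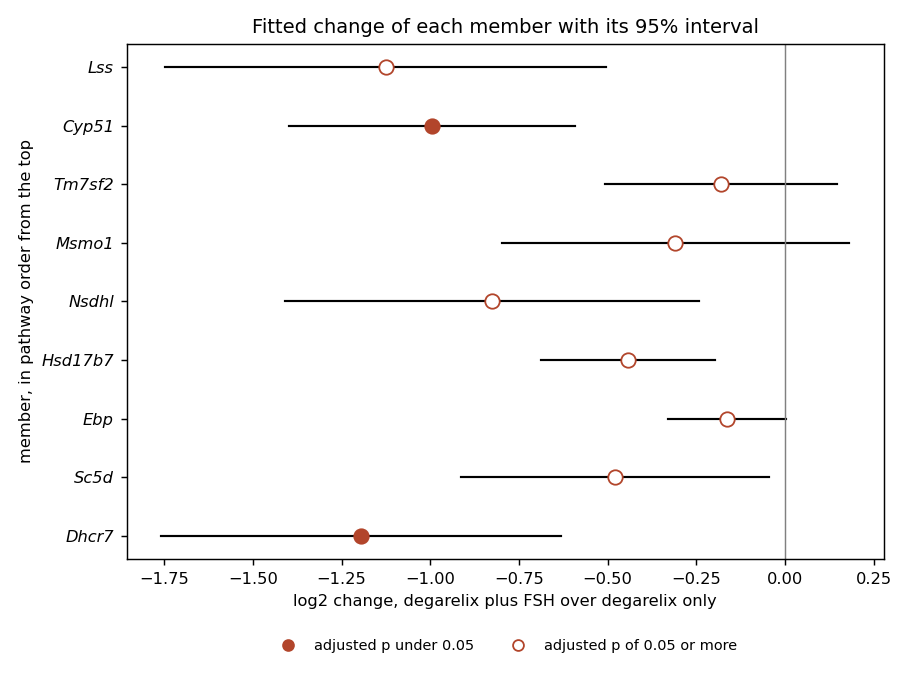
Fitted log2 change of each late sterol synthesis gene (degarelix plus FSH over degarelix only, 5 and 6 rats) in pathway order from the top; lines are 95% intervals from edgeR's quasi-likelihood fit and filled points mark an adjusted p under 0.05. All 9 points lie below 0, the intervals of Tm7sf2, Msmo1 and Ebp cross 0, and Cyp51 and Dhcr7 are the filled ones.

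The promoters of both called genes are shown with that of Nsdhl, which holds the most matches to CCAAT among the members, and that of Tm7sf2, a relative of Dhcr7 whose change did not pass. The sequences are RefSeq's, build GRCr8, from 250 bases before to 50 bases after the gene's start, 5′ to 3′ on the gene's strand. Cyp51 is on the plus strand at chr4:30991443-30991742 and Dhcr7 on the plus strand at chr1:208444184-208444483. Nsdhl is on the plus strand at chrX:155817110-155817409 and Tm7sf2 on the minus strand at chr1:212789492-212789791. Capitals mark matches on either strand to 5 short motifs: CCAAT, the box bound by NF-Y, GGGCGG, the box bound by Sp1, TGACG, the core of the cAMP response element, CACGTG, an E-box, and TCACNCCAC, a form of the sterol regulatory element.
Cyp51: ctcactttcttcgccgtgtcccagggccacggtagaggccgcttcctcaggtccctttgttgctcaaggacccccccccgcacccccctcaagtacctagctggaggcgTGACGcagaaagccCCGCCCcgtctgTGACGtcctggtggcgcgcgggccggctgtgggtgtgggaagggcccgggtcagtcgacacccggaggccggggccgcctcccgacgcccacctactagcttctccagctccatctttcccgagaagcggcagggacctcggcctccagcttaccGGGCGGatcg
Dhcr7: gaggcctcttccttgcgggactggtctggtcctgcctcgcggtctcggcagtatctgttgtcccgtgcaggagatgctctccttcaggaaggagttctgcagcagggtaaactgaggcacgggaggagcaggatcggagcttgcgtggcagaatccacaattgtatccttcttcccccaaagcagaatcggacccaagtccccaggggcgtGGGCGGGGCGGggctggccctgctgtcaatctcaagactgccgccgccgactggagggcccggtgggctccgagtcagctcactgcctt
Nsdhl: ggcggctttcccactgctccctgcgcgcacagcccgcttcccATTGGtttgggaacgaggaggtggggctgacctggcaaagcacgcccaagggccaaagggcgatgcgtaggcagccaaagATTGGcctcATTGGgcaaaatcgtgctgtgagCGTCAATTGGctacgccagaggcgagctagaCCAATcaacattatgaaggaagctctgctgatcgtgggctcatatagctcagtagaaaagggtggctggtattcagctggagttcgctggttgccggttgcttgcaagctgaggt
Tm7sf2: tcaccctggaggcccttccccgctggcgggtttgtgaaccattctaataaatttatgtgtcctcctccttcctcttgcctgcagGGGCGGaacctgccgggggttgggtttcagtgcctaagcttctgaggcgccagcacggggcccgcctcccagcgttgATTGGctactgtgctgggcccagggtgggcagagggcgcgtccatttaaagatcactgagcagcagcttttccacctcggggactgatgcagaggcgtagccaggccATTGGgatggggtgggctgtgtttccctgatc

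All 9 members matched a promoter in the RefSeq table. CCAAT stood in 7 of the 9 windows, where 37.5% of 33469 promoters of the same length held it, and the windows without it were those of Cyp51 and Dhcr7. GGGCGG stood in 8 of 9 members and in 33.1% of all promoters, TGACG in 5 of 9 and in 21.2%, and CACGTG in 1 of 9, Sc5d, and in 6.42%. TCACNCCAC stood in 0 of 9 members and in 1.12% of all promoters. The Cyp51 window held TGACG at 141 and 115 bases before the start, and Nsdhl held 5 matches to CCAAT between 208 and 61 bases before it. In the Nsdhl sequence a TGACG match on the other strand lies directly before a CCAAT match without sharing a base, and in Dhcr7 the 2 GGGCGG matches overlap each other. The GC content of the member windows ran from 57.3% for Nsdhl to 71% for Msmo1, and the promoters set beside them were not matched for it. These matches describe letters in a window and show no binding.

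**Figure D2:**
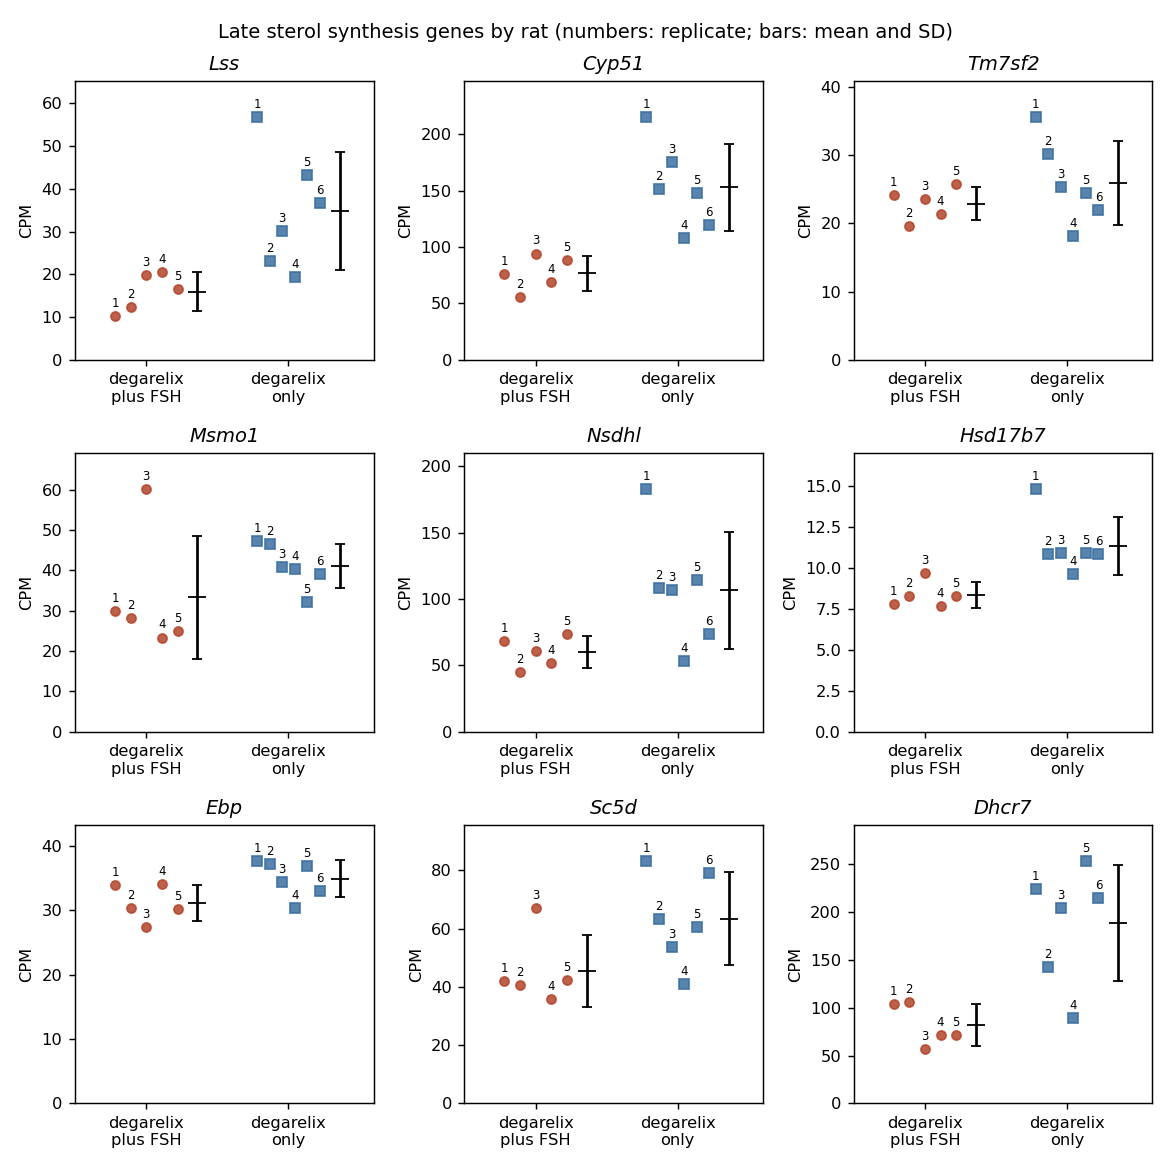
CPM (TMM-scaled) of each member in every rat, with degarelix plus FSH as circles at the left and degarelix only as squares at the right; numbers are replicates and bars give mean and SD. The groups are apart for Cyp51 (at most 94.3 CPM with FSH, at least 108 CPM without), and FSH replicate 3 stands above the rest of its group for Msmo1 and Sc5d.

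Lss folds squalene epoxide into lanosterol, the first ring-bearing sterol of the pathway. Levels are given as CPM, counts relative to the library's TMM-scaled total of the tested genes. They are not compared between genes, since transcript lengths were not used. Lss had 10.3, 12.5, 19.9, 20.6 and 16.6 CPM in FSH replicates 1 to 5, against 19.3 to 56.7 CPM with a median of 33.4 CPM in the degarelix only rats. The groups overlapped, since degarelix only replicate 4 was the lowest of its group and lay below FSH replicates 3 and 4. The means were 16.0 ± 4.53 CPM with FSH and 34.9 ± 13.8 CPM without (SD, n = 5 and n = 6), and the log2 change of -1.13 ± 0.28 (SE) had an adjusted p of 0.0604 in edgeR's test. Without degarelix only replicate 4 it passed, at -1.25 with an adjusted p of 0.0315. With all libraries it passed with DESeq2 (adjusted p = 0.00214) and with limma-voom and sample quality weights (adjusted p = 0.0379). Those 3 fits called more of all genes, 532, 1103 and 635 in that order, against 292 in edgeR's fit of all libraries.

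Cyp51 (ENSRNOG00000007234) is the cytochrome P450 that removes the first methyl group from lanosterol. It had 76.2, 55.8, 94.3, 69.1 and 88.7 CPM in FSH replicates 1 to 5, against 108 to 215 CPM with a median of 149.9 CPM in the degarelix only rats. Every FSH library lay below every degarelix only library, which held for 1 of the 9 members. Over all genes tested the groups were apart for 4.34%, with FSH on the lower side for 1.8%. The log2 change was -0.99 ± 0.18 with a 95% interval of -1.40 to -0.59 (edgeR, adjusted p = 0.0308). The call was lost when degarelix only replicate 1 or 5 or FSH replicate 1, 2 or 5 was left out, with adjusted p between 0.0132 and 0.0738 over the 11 leave-one-out fits, while the log2 change stayed between -1.08 and -0.87.

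Tm7sf2 encodes a reductase that saturates the ring double bond left by Cyp51, a step that the lamin B receptor Lbr can also carry out. Tm7sf2 had 19.6 to 25.8 CPM with FSH and 18.1 to 35.5 CPM without, and the FSH values lay within the degarelix only range. Its log2 change was -0.18 ± 0.15 (adjusted p = 0.501 in edgeR's test), with a 95% interval of -0.51 to 0.15, and it was -0.07 without degarelix only replicate 1. Lbr, whose protein also anchors chromatin at the nuclear envelope, averaged 16.4 ± 2.63 CPM with FSH and 13.7 ± 1.71 CPM without (log2 change 0.26 ± 0.12, adjusted p = 0.217 in edgeR's test).

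The next steps strip the remaining pair of methyl groups through Msmo1, the oxidase, Nsdhl, the decarboxylating dehydrogenase, and Hsd17b7, the ketone reductase that also acts on estrone. Msmo1 had 30.0, 28.1, 60.1, 23.3 and 24.9 CPM in FSH replicates 1 to 5, against 32.2 to 47.2 CPM with a median of 40.6 CPM in the degarelix only rats. FSH replicate 3 was above every degarelix only rat and the other 4 FSH rats were below all of them. Over all 11 libraries the log2 change was -0.31 ± 0.22 (adjusted p = 0.435, edgeR). Without FSH replicate 3 it was -0.63 ± 0.11 and passed the threshold (adjusted p = 0.0398, edgeR).

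Nsdhl had 68.6, 45.1, 60.7, 51.9 and 73.9 CPM in FSH replicates 1 to 5, against 52.9 to 183 CPM with a median of 107 CPM in the degarelix only rats. Degarelix only replicate 4 held the 52.9 CPM and lay inside the FSH range, and replicate 1 held the 183 CPM. The log2 change was -0.83 ± 0.27 (adjusted p = 0.110, edgeR). Of the 11 leave-one-out fits with edgeR it passed in the one without degarelix only replicate 4, at -0.96 with an adjusted p of 0.0380. With all libraries it passed with DESeq2 (adjusted p = 0.0231). Those 2 fits called 532 and 1103 of all genes, against 292 in edgeR's fit of all libraries. RefSeq names a pseudogene of Nsdhl, Nsdhl-ps1, so reads may be shared between them.

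Hsd17b7 had 7.81, 8.27, 9.65, 7.65 and 8.24 CPM in FSH replicates 1 to 5, against 9.61 to 14.8 CPM with a median of 10.9 CPM in the degarelix only rats. Only FSH replicate 3 reached the lowest degarelix only library. The log2 change of -0.44 ± 0.11 had an adjusted p of 0.0608 in edgeR's test. Of the 11 leave-one-out fits with edgeR it passed in the one without degarelix only replicate 4, at -0.48 with an adjusted p of 0.0389. With all libraries it passed with DESeq2 (adjusted p = 0.0118) and with limma-voom and sample quality weights (adjusted p = 0.0360). As for Lss, these 3 fits called 532, 1103 and 635 of all genes, against 292 in edgeR's fit of all libraries.

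Ebp, Sc5d and Dhcr7 finish the ring: Ebp shifts a double bond, Sc5d adds another and Dhcr7 removes the last that distinguishes 7-dehydrocholesterol from cholesterol. Ebp was the steadiest member, with 27.4 to 34.0 CPM with FSH and 30.3 to 37.6 CPM without, and its log2 change was -0.16 ± 0.08 (adjusted p = 0.235, edgeR). Sc5d had 41.9, 40.5, 67.0, 35.7 and 42.5 CPM in FSH replicates 1 to 5, against 40.8 to 83.2 CPM with a median of 61.9 CPM in the degarelix only rats. FSH replicate 3 again stood highest in its group, and the log2 change was -0.48 ± 0.20 with all libraries and -0.66 ± 0.17 without that one (adjusted p = 0.184 and 0.0879, edgeR).

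Dhcr7 (ENSRNOG00000020776) had 104, 106, 57.3, 71.4 and 71.9 CPM in FSH replicates 1 to 5, against 89.3 to 253 CPM with a median of 209 CPM in the degarelix only rats. The groups overlapped through degarelix only replicate 4, the 89.3 CPM library, which lay below FSH replicates 1 and 2. FSH replicate 3, high for Msmo1 and Sc5d, was the lowest of all 11 libraries for Dhcr7. The log2 change was -1.20 ± 0.26 with a 95% interval of -1.76 to -0.63 (adjusted p = 0.0400, edgeR). It passed in 1 of the 11 leave-one-out fits, the one without degarelix only replicate 4, and the adjusted p reached 0.0982 in the others, with log2 changes between -1.34 and -1.09.

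**Figure D3:**
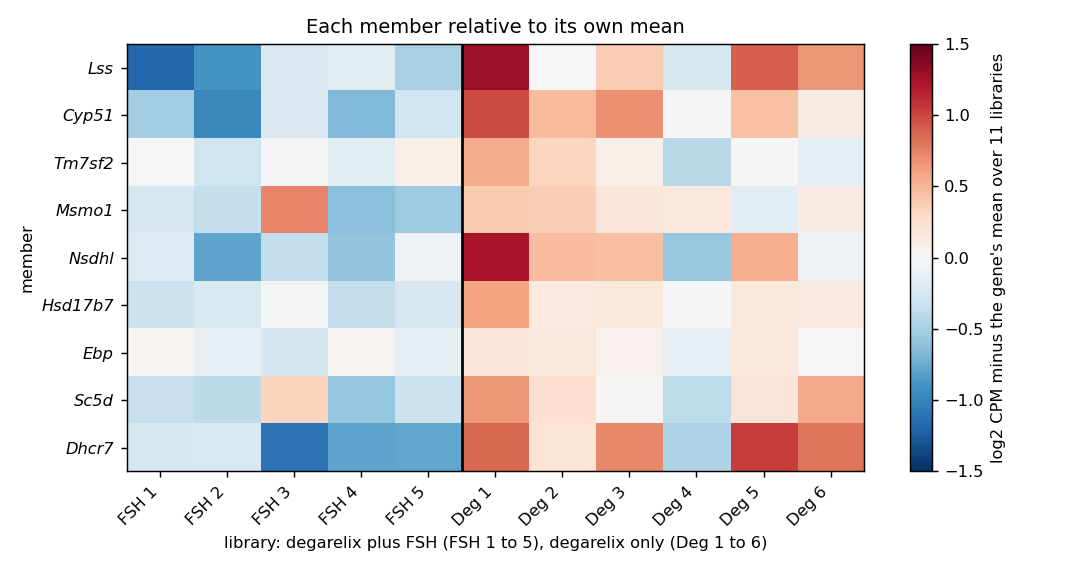
Each member's log2 CPM minus its own mean over the 11 libraries, with the 5 degarelix plus FSH libraries left of the line and the 6 degarelix only libraries right of it. Degarelix only replicate 1 is high and replicate 4 low across most rows, and FSH replicate 3 is high for Msmo1 and Sc5d and low for Dhcr7.

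Summed over the 9 members, expression was 335 to 420 CPM in the FSH rats, against 409 to 897 CPM in the degarelix only rats. Degarelix only replicate 4 held the 409 CPM, inside the FSH range, and the other degarelix only rats held 613.5 CPM or more. The spread between rats differed by gene. The coefficient of variation with FSH ran from 9.04% for Ebp to 45.7% for Msmo1, and without FSH from 8.22% for Ebp to 41.6% for Nsdhl.

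Apart from the group difference, the members varied together only in part. On log2 CPM, taken as deviations from each library's group mean, the 36 pairs of members had a median Pearson r of 0.54 over 11 libraries. Over all pairs of the 12846 genes the median was -0.001, and 7.78% of those pairs had an r at or above the members' median. The closest pair was Tm7sf2 and Nsdhl (r = 0.951), and Msmo1 with Ebp was the most opposed (r = -0.43). Without degarelix only replicates 1 and 4, the libraries farthest from the median of the members' mean, the median r of the pairs was 0.05. These 2 rats were chosen on the mean being correlated, which by itself lowers r. Over the 9 libraries left, Cyp51 and Hsd17b7 had r = 0.636 and 0.674 with the mean of the other 8 members. Dhcr7 had r = -0.63, Ebp -0.54 and Lss -0.07, and the remaining members lay between 0.264 and 0.404.

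Ratios within a library, which do not depend on how libraries are scaled, were compared for 4 pairs of related or neighbouring enzymes by two-sided exact permutation tests of the group difference. Tm7sf2 and Dhcr7 are membrane reductases of the same protein family. The log2 ratio of Tm7sf2 to Dhcr7 was -2.11, -2.43, -1.28, -1.74 and -1.48 in FSH replicates 1 to 5, against -3.37 to -2.24 in the degarelix only rats, so 4 of 5 FSH rats lay above all degarelix only rats. Its mean was -1.81 ± 0.47 with FSH and -2.81 ± 0.49 without (SD, n = 5 and n = 6), a difference of 1.00 with an exact permutation p of 0.0130, or 0.0519 adjusted over the 4 pairs, which misses the threshold. Without FSH replicate 2 the difference was 1.16 and passed (adjusted p = 0.0381, exact permutation test). That was 1 of 11 leave-one-out fits, and in the others it did not pass (adjusted p up to 0.114, same test).

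The other pairs gave smaller differences. The log2 ratio of Hsd17b7 to Nsdhl, both dehydrogenases of the methyl removal steps, was -2.83 ± 0.31 with FSH and -3.15 ± 0.44 without, a difference of 0.31 (adjusted p = 0.424, exact permutation test). That of Sc5d to Msmo1, both iron-dependent oxidases of the same superfamily, was 0.51 ± 0.23 with FSH and 0.60 ± 0.38 without, a difference of -0.09 (adjusted p = 0.706, exact permutation test), which was 0.00032 without FSH replicate 3. That of Lss to Cyp51, the first steps in a row, was -2.29 ± 0.42 with FSH and -2.19 ± 0.44 without, a difference of -0.10 (adjusted p = 0.706, exact permutation test), which was 0.05 without FSH replicate 1. These p-values do not show that the paired genes changed alike.

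**Figure D4:**
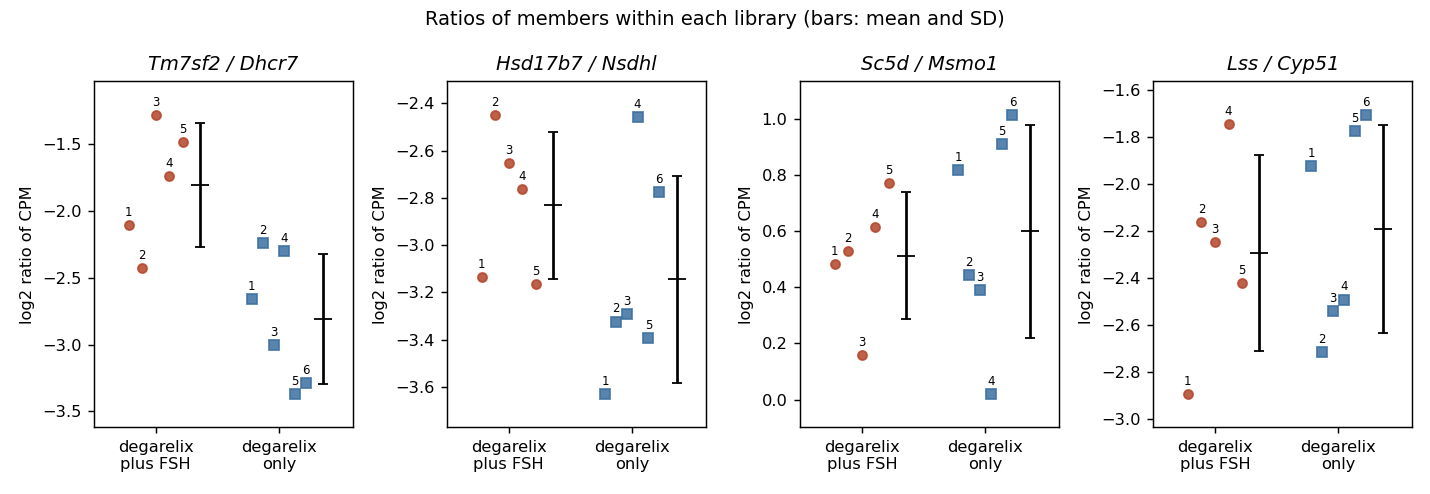
Log2 ratio of CPM between 2 members within each library for 4 pairs, with 5 degarelix plus FSH rats as circles at the left and 6 degarelix only rats as squares at the right; bars give mean and SD. For Tm7sf2 to Dhcr7, 4 of the 5 FSH rats lie above all degarelix only rats, and in the other panels the groups overlap.

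The rest of the pathway was read from lists of related genes. Of the 10 enzymes of the early part, from acetyl-CoA to squalene epoxide, 9 had negative log2 changes and 1 was called lower. The list median was -0.33, and 5 of the 10 lay lower at an unadjusted p under 0.05, where 10.8% of all genes did. The called one was the squalene synthase Fdft1 (98.9 ± 11.2 CPM with FSH, 146 ± 26.3 CPM without, log2 change -0.57 ± 0.12, adjusted p = 0.0396, edgeR), and its call was lost in 9 of 11 leave-one-out fits, with adjusted p up to 0.0960. The squalene epoxidase Sqle had a log2 change of -0.26 ± 0.26 (adjusted p = 0.592, edgeR), which was -0.58 ± 0.19 without FSH replicate 3 and -0.08 without FSH replicate 4.

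Of the 7 genes of SREBP control, 6 had negative log2 changes with a list median of -0.14, and 3 lay lower at an unadjusted p under 0.05. Insig1, which holds SREBP in the membrane, was called lower (761 ± 138.9 CPM with FSH, 1706 ± 453 CPM without, log2 change -1.17 ± 0.19, adjusted p = 0.0159, edgeR). That call ended without FSH replicate 2 (adjusted p = 0.0604). Srebf2, the SREBP most tied to cholesterol synthesis, had a log2 change of -0.12 ± 0.10 (adjusted p = 0.492, edgeR), and of -0.24 ± 0.07 without FSH replicate 3 (adjusted p = 0.110). Of the 8 genes of sterol uptake and transfer 7 were tested, and 5 of these had negative log2 changes, with a list median of -0.16. At an unadjusted p under 0.05, 3 lay lower and 1 higher. The oxysterol-binding protein Osbp was called lower (84.8 ± 3.69 CPM with FSH, 101 ± 4.46 CPM without, log2 change -0.25 ± 0.05, adjusted p = 0.0341, edgeR). Its call ended in 9 of 11 leave-one-out fits (adjusted p up to 0.0899).

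Genes of electron transfer and of sterol efflux had no calls. Of the 6 genes listed around the electron supply of Cyp51, Msmo1 and Sc5d, 0 were called at an adjusted p of 0.05. At an unadjusted p under 0.05, 1 lay lower. The P450 reductase Por had a log2 change of -0.06 ± 0.13 (adjusted p = 0.808, edgeR), or 0.01 without FSH replicate 5. Of the 9 genes of LXR and sterol efflux, 0 were called and 1 lay higher at an unadjusted p under 0.05, a share not counted over all genes. The list median was 0.10, and the log2 change of the cholesterol exporter Abca1 was -0.16 ± 0.19 (adjusted p = 0.651, edgeR), or -0.37 without FSH replicate 2. Of 7 tested genes of fatty acid synthesis, 7 had negative log2 changes, with a median of -1.24, and 5 lay lower at an unadjusted p under 0.05. The elongase Elovl5 was called lower (147.6 ± 25.2 CPM with FSH, 242 ± 47.0 CPM without, log2 change -0.71 ± 0.15, adjusted p = 0.0367, edgeR). Its call ended in 8 of 11 leave-one-out fits (adjusted p up to 0.0905). Fasn, the fatty acid synthase, ranged from 1719 to 9800 CPM with FSH and from 2134 to 23387 CPM without (log2 change -1.24 ± 0.59, adjusted p = 0.244, edgeR).

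**Figure D5:**
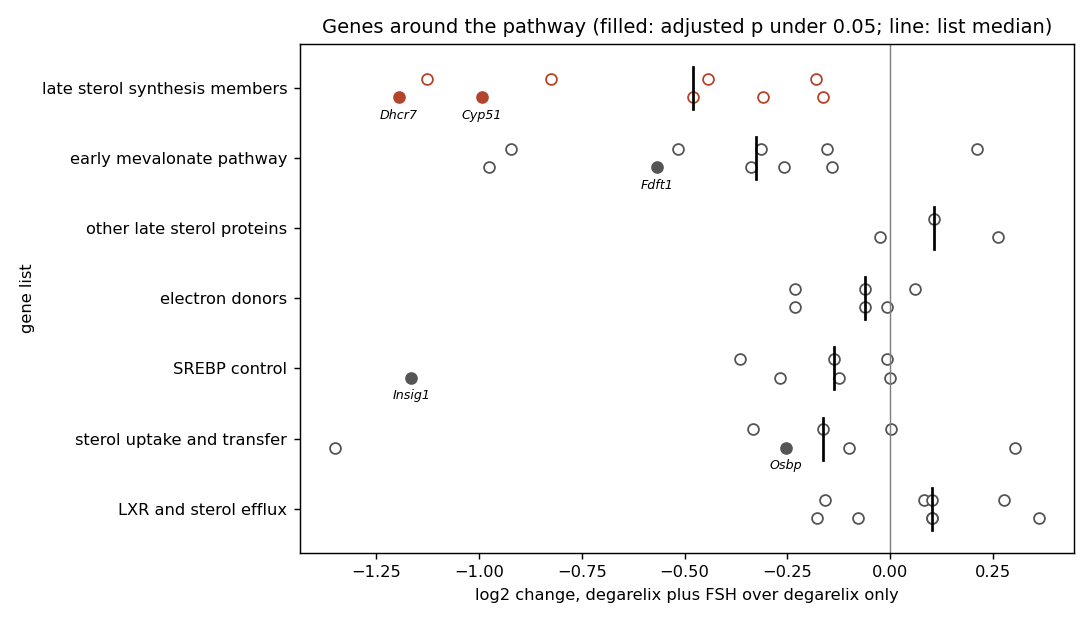
Log2 change (degarelix plus FSH over degarelix only) of each tested gene of the late sterol list and of 6 related lists (fatty acid synthesis is not drawn); filled points have an adjusted p under 0.05 and the line is the list median. The late list has its median at -0.48 and Fdft1, Insig1 and Osbp are the called genes of the other lists drawn.

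Genes outside the members were ranked by how closely their log2 CPM followed the mean of the 9 members over the 11 libraries, again as deviations from the group means. The closest were Mrps2, a mitochondrial ribosomal protein (r = 0.959), Gpt, an alanine aminotransferase (r = 0.954), and Psmd12, a proteasome subunit (r = 0.944). They were followed by Rpusd1, Rgs2, Ssfa2, Oaz1, Pyurf, Cluh and Gatc, down to r = 0.928 for Gatc. Without degarelix only replicates 1 and 4 the 10 values lay between 0.564 for Cluh and 0.900 for Rgs2, over 9 libraries. The 10 genes had log2 changes between -0.32 and -0.10 and none passed edgeR's test with all libraries. Without degarelix only replicate 4, Mrps2 and Cluh passed (adjusted p = 0.0376 and 0.0494), in a fit that called 532 of all genes. Without degarelix only replicate 1 the log2 change was -0.04 for Rgs2 (-0.32 with all libraries) and -0.02 for Gpt (-0.13 with all libraries). Of the pathway genes, Fdps (r = 0.917) and Fdft1 (r = 0.914) came closest, and Fasn had r = 0.765, or 0.417 without degarelix only replicates 1 and 4.

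Total counts were 13163021 to 19837706 in the FSH libraries and 16452117 to 23694602 in the degarelix only libraries (p = 0.0649, two-sided exact permutation test). FSH replicate 3 had the lowest total and stood apart on the first principal component, with a score of 44.2. The other FSH libraries had scores from 2.58 to 12.7. Degarelix only replicate 4, at 4.51, lay within the FSH scores, and the other degarelix only libraries ran from -28.1 to -8.60. Ucp1, the uncoupling protein of brown fat, was at 7.43 CPM in that library and at 0.124 CPM or less in the other 10. Summed brown adipocyte markers ranged from 83.4 to 129.5 CPM with FSH and from 94.4 to 182 CPM without, and 1 of the 4 genes, Cidea, was tested (log2 change -0.24, not called). Adipocyte markers summed to 41779 to 55741 CPM with FSH and 38998 to 49025 CPM without, with Adipoq at 9739 CPM or more in every library. Of 8 tested, 3 had negative and 5 positive log2 changes, with 0 called. At an unadjusted p under 0.05, 1, Lep, lay lower (log2 change -0.625) and 2, Fabp4 and Cfd, lay higher (0.300 and 0.651). Endothelial markers summed to 1419 to 2252 CPM with FSH and 1239 to 1675 CPM without, and 7 of 7 tested markers had positive log2 changes, with 1, Tek, called higher and 5 higher at an unadjusted p under 0.05. Smooth muscle markers summed to 631 to 805.5 CPM with FSH and 497 to 689.5 CPM without, and 5 of 5 had positive log2 changes, with 0 called and 1 higher at an unadjusted p under 0.05. Erythroid markers summed to 322 to 1211 CPM with FSH and 90.3 to 619.9 CPM without, and 2 of 2 had positive log2 changes, with 0 called and 1 higher at an unadjusted p under 0.05. Over all genes tested 1.21% were called higher. The share of all genes higher at an unadjusted p under 0.05 was not counted, so those counts have no share beside them. Of neighbouring organs, adrenal cortex markers summed to 83.6 to 114 CPM with FSH and 81.5 to 114 CPM without. Cyp11b2 was at 0 in all 11 libraries, while Cyp11a1, Star and Mc2r had counts in every one, and of 4 tested 0 were called and 1, Star, lay lower at an unadjusted p under 0.05. Kidney markers summed to 0.436 to 1.82 CPM with FSH and 0.216 to 2.39 CPM without, with Umod, Slc34a1 and Aqp2 at 0 in all 11 libraries and Nphs1 above 0 in each. The part of depth and of these cell types in the members' changes was not tested.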

How the data were processed

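The deposited table holds raw whole-number counts per Ensembl gene, 1 column per rat, with no normalization by the authors, as its values show. The submitters' processing notes list build rn6 and the tools STAR, DESeq2 and edgeR, with no role or version. The sources used here name no counting program, annotation or strand setting, so genes that overlap or have near copies are uncertain. Columns were assigned to rats by names in the labels. Pcmt1 was dropped, since its row holds a letter in 1 cell.

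Total counts per library were 13163021 to 23694602, and 3 counts, the floor for a count of 0, are 0.127 to 0.228 CPM of a library's unscaled total (counting error only). Libraries differed well beyond sampling noise (chi-square over its degrees of freedom of at least 21.3), so each counted as 1 replicate. edgeR 4.0.16 in R 4.3.3 was run on all 11 libraries (filterByExpr, TMM factors, robust quasi-likelihood test, intercept and group), with Benjamini-Hochberg adjustment over 12846 genes, a threshold of 0.05 and two-sided tests. CPM is relative to the TMM-scaled total of the tested genes, and log2 CPM used a prior count of 2. Over all genes tested, TMM factors gave a median log2 change of 0.00812, RLE 0.00166 and upper-quartile factors 0.0196.

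The members and lists were chosen with earlier results of these data known. The genes named are the 9 members, every called gene of the 7 other pathway lists, genes set by name (Lbr, Sqle, Srebf2, Insig1, Por, Abca1 and Fasn, with others not reported here) and the 10 genes most like the members' mean (mean of at least 1 CPM). Fdps and single markers were named after their values were seen. Of 124 list symbols, 117 matched directly, 2 through a synonym and 5 were not matched. Alternatives were other scalings and filters, DESeq2 1.42.0, limma-voom (limma 3.58.1), edgeR without robust estimation, the replicate number as a block, a threshold of 0.10 and each library left out. Promoters came from a RefSeq table of build GRCr8, which is not the build of the counts.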

Additional observations from a re-analysis of the deposited data

Results flagged for a closer look

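Of 46 sets of values checked for a rat far from the rest of its group, 3 had one, where chance gives about 1 in 20. All but the last named here concern FSH replicate 3. Its Msmo1 level was 60.1 CPM, against 23.3 to 30.0 CPM in the other FSH rats. Its Sc5d level was 67.0 CPM, against 35.7 to 42.5 CPM. The other concerns degarelix only replicate 1, whose Hsd17b7 level was 14.8 CPM, where its 5 group mates had 9.61 to 10.9 CPM.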

How the results depend on the processing

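The 9 members kept a negative log2 change in each of the 20 refits, and their median stayed between -0.66 and -0.39 with 1 library left out. The number of members called was 1 with no low-count filter, 5 with DESeq2, 4 with limma-voom and sample quality weights, 0 with the replicate block, 4 at an adjusted p of 0.10 and 0 to 5 with 1 library left out. The number of all genes called, 292 in the report's fit, was 1103 with DESeq2, 635 with limma-voom and sample quality weights, 14 with the replicate block, 962 at an adjusted p of 0.10 and 30 to 551 with 1 library left out. The labels give the replicate number no shared litter or day. Over all genes tested, deviations of same-numbered libraries of the 2 groups had r between -0.11 and 0.13 over the 5 pairs. Such values cannot exclude a shared litter or day, so whether the numbers pair the rats is not known. Under the block the adjusted p was 0.0619 for Cyp51 and 0.139 for Dhcr7 (edgeR). With 1 library left out, the difference in log2 ratio lay between 0.87 and 1.16 for Tm7sf2 to Dhcr7 (1.16 without FSH replicate 2), 0.22 and 0.45 for Hsd17b7 to Nsdhl, -0.20 and 0.00032 for Sc5d to Msmo1 and -0.24 and 0.048 for Lss to Cyp51. The sign turned without FSH replicate 3 for Sc5d to Msmo1 and without FSH replicate 1 for Lss to Cyp51. The cause of these shifts was not tested. The lowest count of any member in a library was 130, for Hsd17b7. This bears on counting error only, and the part of depth in these shifts was not tested.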
